A study of Mus musculus with 3 samples.

Results

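Notch1, Notch2 and Notch3 are receptors, Dll1, Dll3 and Jag1 are ligands, and Hes1, Hes5 and Hey1 are target genes of the Notch pathway, and their RNA was followed here across 3 populations of cells sorted from mouse embryonic brain or from differentiated embryonic stem (ES) cells. The 9 genes were taken by name, and each probe whose transcript identifier is a RefSeq transcript of one of them was used. This gave 12 probes for 9 of the 20145 genes that the array's probes could be named for. Notch1, Notch2 and Dll3 had 2 probes and the other 6 genes had 1. No proneural factor is among the 9. Those factors, which work with this pathway, are described after them.

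Notch signalling passes between neighbouring cells. A ligand on one cell binds a receptor on the next, the receptor is cut by Adam10 and gamma-secretase, and its intracellular part enters the nucleus, where it joins the DNA-binding protein Rbpj and turns on repressors of the Hes and Hey families. In the embryonic brain these repressors hold proneural factors such as the neurogenins low and keep cells as dividing radial glia, while cells that escape them raise Delta ligands and become neurons.

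The 3 populations were separated by a green fluorescent protein (GFP) reporter carried on a bacterial artificial chromosome (BAC) of Lhx6, a transcription factor of neurons born in the medial ganglionic eminence (MGE). MGE-GFP+ cells were GFP positive cells of the MGE of E12.5 embryos in the CD1 background, labelled female. Differentiated J14 ES cells gave a GFP positive population, ES-Lhx6-GFP+, and a GFP negative one, ES-Lhx6-GFP-. The line was labelled 129S4/SvJae and male, and carried the Lhx6-GFP BAC and a viral 692-mCherry enhancer reporter. Both ES populations came from cultures at day 12 of differentiation that had received 100 ng/ml Dkk-1, a Wnt antagonist, and from day 3 6 nM SAG, an agonist of the Hedgehog pathway, and that had moved to dishes with an N2-supplemented medium on day 6. The BAC reporter was present in all 3 populations, the mCherry reporter only in both ES populations, and strain, sex, reporter and culture differ together between the MGE and ES cells and cannot be told apart. The GFP negative fraction is whatever the culture held beside GFP positive cells, so it is not 1 cell type.

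Each population was measured on 1 array, so there are no replicates and no test between populations was possible. A level below is log2 of a probe's background-subtracted intensity divided by the array's 75th percentile, and for a gene it is the mean over its probes. The error given is that of repeat spots of 1 probe on 1 array, with a standard deviation of 0.14, 0.142 and 0.144 log2 units on the GFP positive ES, GFP negative ES and MGE arrays. By that measure 2 standard deviations of a difference between 2 arrays come to 1.32-fold. This covers spotting and scanning error only, and leaves out the spread between cultures or embryos. Fewer cells of a type in a sorted population and less RNA per cell cannot be told apart in these data.

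All 12 probes were well above background on all 3 arrays by the scanner software's call. Control probes for sequences that mouse RNA should not hold, 10 for E1A and 96 for the ERCC set, set a stricter limit. Their 95th percentile was an intensity of 377 on the GFP positive ES array, 208 on the GFP negative ES array and 152 on the MGE array, and 86, 34 and 34 of the 106 were called well above background there. Dim values were therefore least certain on the GFP positive ES array. On the same arrays 36.8%, 46.9% and 43.3% of all mouse probes were above the limit. The limit differs between arrays, so counts of genes above it are not on equal terms. For the 9 genes, and for most others named, a fold with a probe inside this range on 1 array is followed by a second, given as "at least" and computed with the dim array at the limit. All 11 MGE lineage markers (Lhx6, Nkx2-1, Dlx1, Dlx2, Dlx5, Dlx6, Gad1, Gad2, Sox6, Erbb4 and Sst) were above it on all 3 arrays and at least 2-fold higher on both GFP positive arrays than on the GFP negative ES array. Lhx6 itself read 22250, 4061 and 29403 on the GFP positive ES, GFP negative ES and MGE arrays as the mean over 3 probes, all above the control range. The probes ranged from 5818 to 111947, from 399 to 122188 and from 10244 to 97733 on these arrays. The highest reading was thus on the GFP negative ES array, and the higher means came from the dimmer readings.

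Of the 9 genes, 7 have a promoter window in the RefSeq table used here (build GRCm38.p6), Dll1 with a pair of windows, and none was used for Hes1 and Hey1. In the 250 bases before the start, both strands were searched for GTGGGAA, the core that Rbpj binds, for CAGCTG, an E-box of the kind proneural factors bind, and for CACNAG, the N-box of Hes factors. None of the 3 overlapped another in these windows. GTGGGAA was in 5.42% of all 32851 windows and in 1 of the 8 windows of these genes, that of Hes5, at 226 and 83 bases before the start. CAGCTG was in 13.0% of all windows and in 3 of these 8, 1 for each ligand. CACNAG was in 36.7% of all windows and in 3 of the 8, those of the receptors. A match is a run of letters, and no binding was measured. The Hes5 window is printed as the one with the Rbpj core, and those of the ligands as the ones with the E-box. In the Hes5 sequence the capitals mark GTGGGAA, first on the reverse strand and then on the forward strand, and in the other 3 they mark CAGCTG.
Hes5, chr4:154960673-154960922, plus strand: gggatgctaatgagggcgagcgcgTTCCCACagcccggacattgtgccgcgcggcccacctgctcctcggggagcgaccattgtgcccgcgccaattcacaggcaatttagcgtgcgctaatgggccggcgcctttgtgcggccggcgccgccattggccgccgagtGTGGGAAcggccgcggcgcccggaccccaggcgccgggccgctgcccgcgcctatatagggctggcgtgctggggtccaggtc
Dll1, chr17:15376933-15377182, minus strand: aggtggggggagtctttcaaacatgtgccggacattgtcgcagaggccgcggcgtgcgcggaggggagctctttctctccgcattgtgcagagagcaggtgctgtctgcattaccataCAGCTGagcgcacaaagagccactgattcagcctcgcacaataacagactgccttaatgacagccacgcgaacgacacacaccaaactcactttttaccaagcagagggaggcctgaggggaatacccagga
Dll3, chr7:28301786-28302035, minus strand: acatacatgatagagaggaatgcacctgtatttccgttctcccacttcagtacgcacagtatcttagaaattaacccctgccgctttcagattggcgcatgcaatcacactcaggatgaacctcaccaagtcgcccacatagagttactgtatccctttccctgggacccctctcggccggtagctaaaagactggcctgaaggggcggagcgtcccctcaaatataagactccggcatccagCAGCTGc
Jag1, chr2:137116521-137116770, minus strand: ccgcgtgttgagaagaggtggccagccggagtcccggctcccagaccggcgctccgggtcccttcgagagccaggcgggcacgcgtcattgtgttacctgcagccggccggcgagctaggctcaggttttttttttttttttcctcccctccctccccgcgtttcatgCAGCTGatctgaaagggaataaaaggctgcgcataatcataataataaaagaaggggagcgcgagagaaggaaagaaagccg

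The receptors were highest on the GFP negative ES array. Notch3, the receptor best known from vascular mural cells and also made by neural progenitors, had a level of -0.64 on the GFP positive ES array, 3.02 on the GFP negative ES array and -1.76 on the MGE array, from intensities of 480, 6836 and 170. Both GFP positive arrays were far below the GFP negative one, and its probe was above the control range on each. It was 12.6-fold lower on the GFP positive ES than on the GFP negative ES array, and only 10 of the 18655 genes with a value had a more negative difference. On the MGE array it was 27.5-fold lower than on the GFP negative ES array and 2.18-fold lower than on the GFP positive ES array.

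Notch1, a receptor that maintains neural progenitors, had levels of -0.91, 1.14 and -1.26 on the GFP positive ES, GFP negative ES and MGE arrays. Its first probe read 230, 1609 and 193 and its second 690, 2149 and 299 in intensity. The GFP negative array was the highest by both. Notch1 was 4.13-fold lower on the GFP positive ES array than on the GFP negative ES array, 6.18-fold by the first probe and 2.76-fold by the second, and at least 3.23-fold with the first probe at its limit. It was 5.29-fold lower on the MGE than on the GFP negative ES array. The mean difference of 0.36 log2 units between both GFP positive arrays was within 2 standard deviations, but the probes disagreed. The second, the only one above the control range on both arrays, was 1.78-fold lower in MGE, beyond 2 standard deviations, and the first was 1.08-fold higher.

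Notch2 gave the least certain values of the 3 receptors. Its levels were -2.34, -0.06 and -3.03 on the same arrays, where its first probe read 189, 2526 and 67.1 and its second 115, 260 and 74.3. Both probes were highest on the GFP negative array and inside the control range on both GFP positive arrays, but they disagreed in size. GFP positive ES was lower than GFP negative ES by 11.8-fold with the first and by 2.00-fold with the second, a mean of 4.86-fold, and by at least 5.94-fold with the first at its limit, where the second gives no bound. MGE was 7.84-fold lower than GFP negative ES, and at least 3.65-fold.

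**Figure D1:**
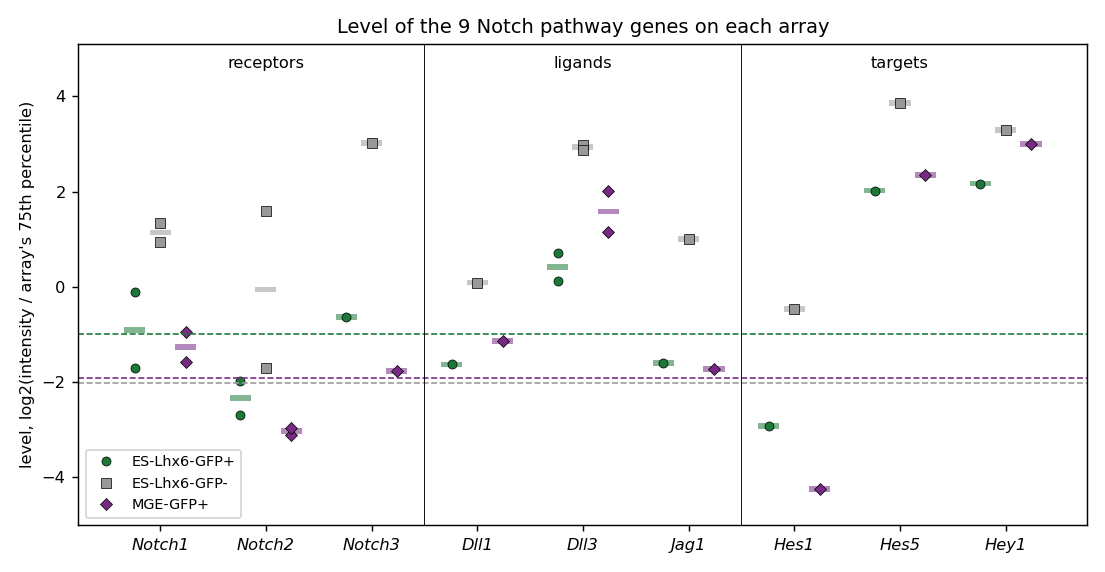
Level of each gene on the 3 arrays, as log2 of intensity over the array's 75th percentile; points are probes, bars are the mean over a gene's probes, and dashed lines are each array's 95th percentile of control probes. The ES-Lhx6-GFP- array (grey squares) is the highest for all 9 genes, and Hes1 and Notch2 lie under the dashed line of both GFP positive arrays.

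Among the ligands, Dll3, a Delta protein that works mostly inside the cell and is made by cells becoming neurons, was above the control range on every array. Its levels were 0.42 on the GFP positive ES array, 2.93 on the GFP negative ES array and 1.58 on the MGE array. The first probe read 1224, 6695 and 1279 and the second 811, 6199 and 2317. Both probes put the GFP negative array highest and the GFP positive ES array lowest. Dll3 was 5.72-fold lower on the GFP positive ES than on the GFP negative ES array, 4.84- and 6.77-fold by probe, and 2.56-fold lower on the MGE array than there, 3.57- and 1.83-fold by probe. Between both GFP positive arrays MGE was 2.24-fold higher, but by 1.35-fold with 1 probe and 3.70-fold with the other.

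Dll1, the Delta ligand that newborn neurons show to their neighbours, was printed in 10 spots. Spot intensities ran from 219 to 276 on the GFP positive ES array, from 825 to 1005 on the GFP negative ES array and from 245 to 281 on the MGE array. After scaling the mean levels were -1.63 ± 0.12, 0.09 ± 0.08 and -1.13 ± 0.06 (SD over 10 spots of 1 array, not over samples). Before scaling the spot intensities of both GFP positive arrays overlapped, so the distance between these arrays depends on the scaling. Dll1 was 3.29-fold lower on the GFP positive ES than on the GFP negative ES array, at least 2.11-fold by the control limit, and 2.33-fold lower on the MGE array than there. MGE was 1.41-fold above GFP positive ES, where the probe lay inside the control range.

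Jag1, a ligand of the Jagged family, had levels of -1.59, 1.00 and -1.73 and intensities of 247, 1684 and 174 on the GFP positive ES, GFP negative ES and MGE arrays. Again the GFP negative array stood above both others. The gene was 6.03-fold lower on the GFP positive ES than on the GFP negative ES array, at least 3.96-fold by the control limit, and 6.63-fold lower on the MGE array. Both GFP positive arrays differed by 0.14 log2 units, within 2 standard deviations.

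**Figure D2:**
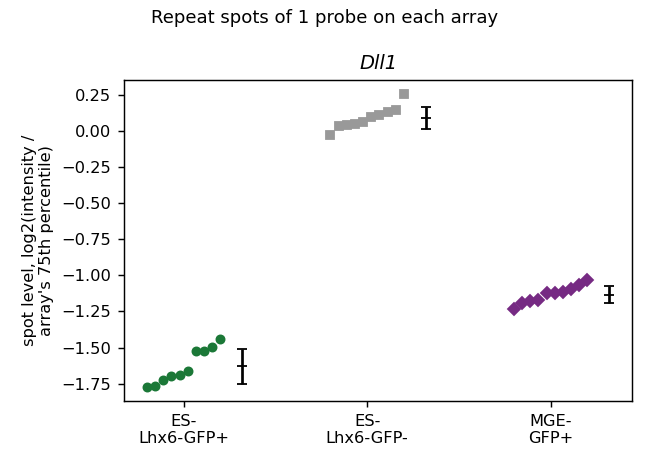
Level of each repeat spot of the Dll1 probe on the 3 arrays (log2 of intensity over the array's 75th percentile); bars to the right are the mean and SD over the spots of 1 array. In these scaled values the spots of the GFP negative ES array are highest and those of the GFP positive ES array lowest.

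The target genes were also highest on the GFP negative array, but they differed in how far the GFP positive cells fell below it. Hes5, a repressor widely used as a readout of Notch activity in neural progenitors, had levels of 2.02, 3.85 and 2.34 on the GFP positive ES, GFP negative ES and MGE arrays, from intensities of 3032, 12189 and 2923. All 3 were far above the control range, those of both GFP positive populations included. It was 3.56-fold lower on the GFP positive ES and 2.85-fold lower on the MGE array than on the GFP negative ES array, and the 1.25-fold difference between both GFP positive arrays was within 2 standard deviations.

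Hey1, a repressor related to the Hes proteins, was the exception among the 9. Its levels were 2.17, 3.29 and 3.00, from intensities of 3360, 8247 and 4617. The GFP positive ES array was the lowest and the other two lay close together. Hey1 was 2.17-fold lower on the GFP positive ES than on the GFP negative ES array, but on the MGE array it was 1.22-fold lower than on the GFP negative ES array, within 2 standard deviations. On the same pair of arrays the other 8 genes were 2.33- to 27.5-fold lower in MGE. The difference of Hey1 exceeded that of Hes5 by 1.22 log2 units there, against 0.57 for 2 standard deviations, a value that no rescaling of an array by a single number can change.

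Hes1, a repressor of progenitors that is also made outside the nervous system, was dim. Its levels were -2.92, -0.47 and -4.24 and its intensities 98.8, 610 and 30.4. The GFP negative array alone was above the control range. Hes1 was 5.47-fold lower on the GFP positive ES and 13.7-fold lower on the MGE than on the GFP negative ES array. By the control limit these become at least 1.44-fold and at least 2.75-fold. Between both GFP positive arrays no order can be given, since MGE was 2.5-fold lower here but higher by 0.14 and 0.04 log2 units after quantile normalization and in the deposited log2 values.

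For the 9 genes together, GFP positive ES was at least 2-fold lower than GFP negative ES in 9 of 9, with a median log2 difference of -2.28, where 6.40% of all 18655 genes were at least 2-fold lower, 24.0% were at least 2-fold higher and the median of all genes was 0.27. Of the 5 genes above the control range on both arrays (Notch1, Notch3, Dll3, Hes5 and Hey1), all were at least 2-fold lower, against 4.83% of the 9273 genes that met the same limit. MGE was at least 2-fold lower than GFP negative ES in 8 of 9 and higher in none, with a median of -2.40, where 17.2% of 17025 genes were lower, 9.90% were higher and the median was -0.06. Above the control range on both arrays it was 6 of 7, against 7.85% of 10126 genes. Both comparisons share the GFP negative ES array, so they are not independent of each other. None of the 9 was at least 2-fold higher in either.

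Between the GFP positive populations the genes went both ways. MGE was at least 2-fold lower than GFP positive ES for Notch3 and Hes1 and at least 2-fold higher for Dll3, with a median of -0.14, where 32.2% of 18580 genes were lower, 5.48% were higher and the median of all genes was -0.36. The order of the 3 arrays split the genes. Notch1, Notch2, Notch3, Jag1 and Hes1 ran from GFP negative ES over GFP positive ES down to MGE, and Dll1, Dll3, Hes5 and Hey1 from GFP negative ES over MGE down to GFP positive ES. The neighbours that did not differ beyond 2 standard deviations were both GFP positive arrays for Notch1, Jag1 and Hes5, and MGE and GFP negative ES for Hey1. Under every way of processing that gave a value, Dll1, Dll3, Hes5 and Hey1 were higher and Notch3 was lower in MGE than in GFP positive ES, whereas the sign of Notch1, Notch2, Jag1 and Hes1 depended on it. The difference of Dll3 exceeded that of Notch3 by 2.29 log2 units, against 0.49 for 2 standard deviations.

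**Figure D3:**
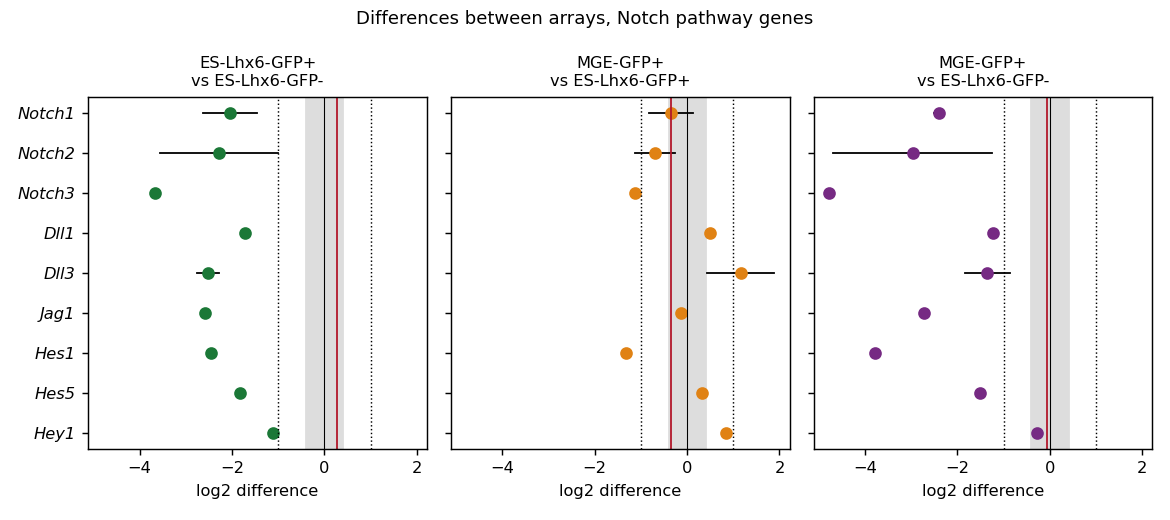
Log2 difference between arrays for each gene in the 3 comparisons; points are gene means, black lines span a gene's probes, the grey band is 2 standard deviations of repeat spots, dotted lines mark 2-fold, and the red line is the median of all genes. In both comparisons with ES-Lhx6-GFP- the points lie left of the red line, while in MGE-GFP+ vs ES-Lhx6-GFP+ they lie on both sides of it.

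The size of these differences depended on how the arrays were scaled. On the GFP positive ES, GFP negative ES and MGE arrays 90.6%, 80.3% and 77.1% of mouse probes were well above background. Scaling by the 50th percentile moved the median of all genes to -0.18, 0.40 and 0.25 for GFP positive vs GFP negative ES cells, MGE vs GFP positive ES cells and MGE vs GFP negative ES cells. Of all genes past 2-fold, the share that was higher went from 78.9% to 52.1%, from 14.6% to 60.3% and from 36.5% to 58.7%, and quantile normalization gave 43.4%, 51.7% and 44.9%. All 9 genes stayed lower in GFP positive ES than in GFP negative ES under all 11 alternatives, but 8 of 9 were at least 2-fold lower with the deposited log2 values, where Hey1 was at -0.95, and with the floor at the control probes, where Hes1 was at -0.52. With that floor the direction of Notch2, Dll1, Jag1 and Hes1 was fixed by the rule. They were above the limit only on the GFP negative ES array of this pair, so they could only be lower or have no value. Against GFP negative ES, MGE was lower for 8 genes under all 11 alternatives, and Hey1 was higher by 0.02 log2 units with the 50th percentile. The direction of Notch2 and Hes1 was fixed in the same way here with the floor at the control probes. The 8 that were at least 2-fold lower became 7 with the 50th percentile (Dll1 at -0.92), with the deposited log2 values (Dll1 again) and with the brightest probe (Dll3 at -0.87).

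**Figure D4:**
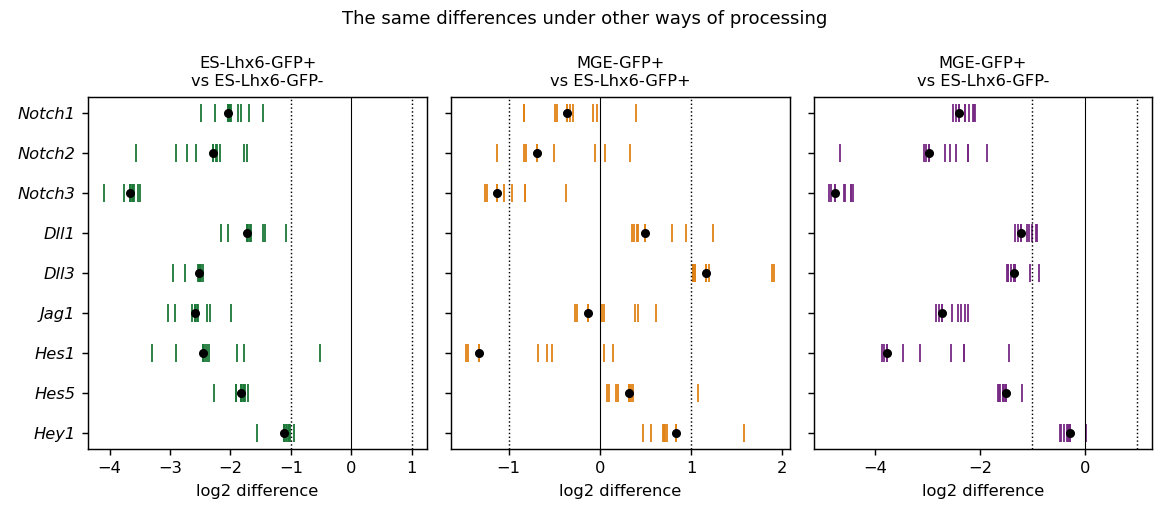
The same log2 differences under the main processing (black dots) and under the other ways of processing (coloured ticks), with dotted lines at 2-fold. Every tick lies left of 0 in ES-Lhx6-GFP+ vs ES-Lhx6-GFP-, and the ticks of Notch1, Notch2, Jag1 and Hes1 fall on both sides of 0 in MGE-GFP+ vs ES-Lhx6-GFP+.

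The rest of the pathway gave mixed values. Of 55 other genes counted by role, 54 were on the array and 52 had a value in GFP positive vs GFP negative ES cells, where 11 were at least 2-fold lower, 2 were at least 2-fold higher and the median log2 difference was -0.33. For MGE vs GFP negative ES cells it was 11 lower and 3 higher of 52, with a median of -0.35, and for MGE vs GFP positive ES cells 9 lower and 2 higher of 51, with a median of -0.01. Of all genes 6.40% were lower and 24.0% higher in the first comparison, 17.2% and 9.90% in the second and 32.2% and 5.48% in the third. None of 8 genes for receptor cleavage passed 2-fold in the 3 comparisons, the nearest being Furin, which cuts the receptor during export (-0.99 in GFP positive vs GFP negative ES cells), and the surface protease Adam10 (0.99 in MGE vs GFP positive ES cells). With the 50th percentile 4 of the 8 were past 2-fold lower in GFP positive vs GFP negative ES cells, 4 higher in MGE vs GFP positive ES cells and 2 higher in MGE vs GFP negative ES cells, and with the brightest probe per gene 1 was higher in MGE vs GFP positive ES cells. Rbpj, the DNA-binding partner of all receptors, read 2506, 2716 and 2285 in intensity on the GFP positive ES, GFP negative ES and MGE arrays, and no pair of arrays differed in it beyond 2 standard deviations. Over the alternatives its difference ran from -0.38 to 0.34 in GFP positive vs GFP negative ES cells, from -0.18 to 0.99 in MGE vs GFP positive ES cells and from 0.14 to 0.61 in MGE vs GFP negative ES cells. Of the 7 genes of the nuclear complex counted only the coactivator Maml2 passed 2-fold (-1.92 and -2.59 in GFP positive ES and MGE against GFP negative ES), and it was inside the control range on both GFP positive arrays, which gives at least 2.33-fold and 4.46-fold lower. Maml1 was higher in MGE than in GFP positive ES by 0.98, at least 1.80-fold by the control limit. With the 50th percentile 4 others of these 7 were at least 2-fold higher in MGE vs GFP positive ES cells and 2 in MGE vs GFP negative ES cells, and with quantile normalization Maml1 was so in MGE vs GFP positive ES cells.

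Some of the other genes did differ. Lfng, a glycosyltransferase that tunes which ligand a receptor answers to, read 112, 1073 and 29.3 on the GFP positive ES, GFP negative ES and MGE arrays. It was 8.49-fold lower on the GFP positive ES and 25-fold lower on the MGE than on the GFP negative ES array, or at least 2.52-fold and 4.83-fold by the control limit. Nrarp, a direct target that damps the pathway, read 110, 692 and 135, and was 5.57-fold and 3.49-fold lower on the same arrays, or at least 1.63-fold and 3.11-fold. Both had their highest value on the GFP negative array. Hes7, a target best known from the somite clock, was 0.79 log2 units higher in MGE vs GFP negative ES cells, which became 1.10 with the 50th percentile.

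Other receptors and ligands went their own ways. Notch4, the receptor best known from endothelium, had a log2 difference of 0.88 in GFP positive vs GFP negative ES cells, against the direction of the other 3 receptors, and of 0.50 in MGE vs GFP negative ES cells. Dlk1, a Delta-like protein that lacks the usual receptor-binding domain, was 2.10-fold and 4.18-fold lower in GFP positive ES and MGE than in GFP negative ES. The first of these fell short of 2-fold with quantile normalization, normexp, unsubtracted median intensities and the deposited log2 values, with a smallest difference of -0.87. Dner, a neuronal Delta-like protein, was 2.94-fold higher in MGE than in GFP negative ES. None of 4 ubiquitin ligases that act on ligands passed 2-fold, with Neurl1a at -0.99 in GFP positive vs GFP negative ES cells, although Neurl1a did so with the 50th percentile and with quantile normalization. Neurl1b stood at 0.73 there, but 1 of its probes was about as bright on both arrays (intensities of 285006 and 285059) and the other was inside the control range on both (262 and 122), and with the floor at the control probes the difference was 0.18. Of 8 inhibitors only the ubiquitin ligase Itch did, at 1.08 in MGE vs GFP positive ES cells, which is at least 1.35-fold by the control limit, and Dtx4 stood at -0.93 in MGE vs GFP negative ES cells. With the 50th percentile 3 inhibitors were at least 2-fold lower in GFP positive vs GFP negative ES cells and 4, Itch included, higher in MGE vs GFP positive ES cells, and under some other alternatives Dtx4, Numb or Fbxw7 was at least 2-fold lower in 1 or 2 comparisons. Itch passed 2-fold under 7 of the 11 alternatives. Poglut1, which adds glucose to the receptors, was 2.24-fold higher in MGE than in GFP negative ES.

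**Figure D5:**
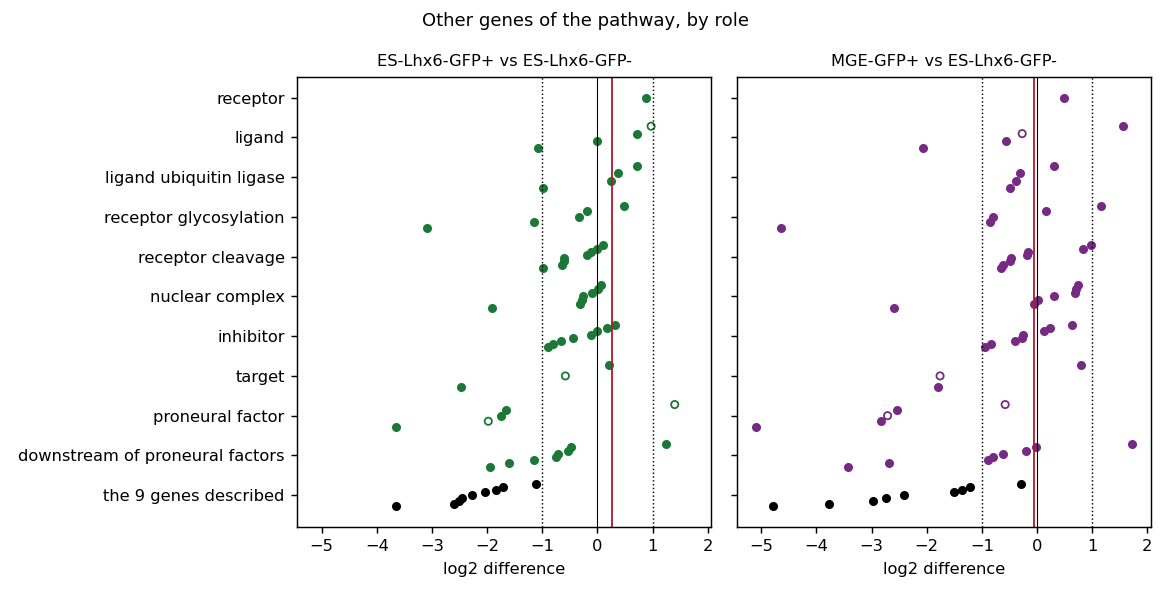
Log2 differences of the other pathway genes by role (filled: above the control probes' 95th percentile on at least 1 of both arrays; open: on neither), with the 9 genes described in black at the bottom, dotted lines at 2-fold and the median of all genes in red. With this scaling receptor cleavage lies within 2-fold, whereas most proneural factors lie left of the dotted line at -1.

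Of 6 proneural factors counted, 5 had a value in GFP positive vs GFP negative ES cells, and 4 were at least 2-fold lower and 1, Neurog3, was higher, with both of its values inside the control range. In MGE vs GFP negative ES cells 4 of 5 were at least 2-fold lower. Of all genes 6.40% were lower and 24.0% higher in the first of these comparisons, and 17.2% were lower in the second. With the floor at the control probes only 1 factor, Neurog2, had a value in the first of these comparisons, and it was at least 2-fold lower. In the second 3 had a value, and of these Neurog2 alone was at least 2-fold lower. These factors were above the limit only on the GFP negative ES array. With that floor they could only be lower or have no value, so their direction there was fixed by the rule.

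Neurog2, the proneural factor of the cortex, read 73.4, 1043 and 20.7 on the GFP positive ES, GFP negative ES and MGE arrays. Only the GFP negative value was above the control range, so it was at least 2.45-fold lower on the GFP positive ES and at least 4.69-fold lower on the MGE array by that limit (12.6-fold and 34.4-fold as measured). Neurog1 was dimmer still, at 68.5, 260 and 24.9, and by that limit it was at least 1.17-fold lower in MGE than in GFP negative ES. Of 8 genes known to lie downstream of proneural factors, 3 were at least 2-fold lower and 1 higher in GFP positive ES than in GFP negative ES. In MGE vs GFP negative ES cells 2 were lower and 1 higher. Of all genes 6.40% were lower and 24.0% higher in the first comparison, and 17.2% and 9.90% in the second. The higher gene was Cbfa2t3 in both, 2.36-fold in GFP positive ES and 3.31-fold in MGE. By the control limit these become at least 2.14-fold and at least 2.99-fold. Hes6, which opposes Hes1, read 2167, 3544 and 2119, with a difference of -0.53 in GFP positive vs GFP negative ES cells. Btg2, which slows division in progenitors about to make neurons, was 3.86-fold and 10.8-fold lower in GFP positive ES and MGE than in GFP negative ES, and Gadd45g, a stress and growth arrest gene, was 4.64-fold lower in MGE than in GFP positive ES.

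Lists of radial glia and cell cycle markers were counted in the same way. Of 12 radial glia markers, 9 were at least 2-fold lower and 1 was at least 2-fold higher in GFP positive ES than in GFP negative ES. In MGE vs GFP negative ES cells 9 were at least 2-fold lower and none was at least 2-fold higher. The summed scaled intensity of the list (1 for each gene at its array's 75th percentile) was 13.5, 64.0 and 19.6 on the GFP positive ES, GFP negative ES and MGE arrays, and 7, 12 and 7 of 12 were above the control range. Tnc, the 1 marker higher in GFP positive ES, was counted only on the GFP negative ES array, by 1 of 2 probes. Its mean intensity was 222 on the GFP positive and 98.7 on the GFP negative ES array. Of 10 cell cycle genes, 8 were at least 2-fold lower in GFP positive ES and 5 in MGE than in GFP negative ES. Their sums were 3.28, 12.6 and 7.84, and 8 of 9 were at least 2-fold higher in MGE than in GFP positive ES. Of all genes 6.40% were at least 2-fold lower and 24.0% higher in GFP positive vs GFP negative ES cells. In MGE vs GFP negative ES cells these shares were 17.2% and 9.90%, and 5.48% were higher in MGE vs GFP positive ES cells. The part of these markers in the values of Hes5, Hes1, Hey1 and the ligands was not tested.

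Mural and mesenchymal markers were counted for Notch3 and Jag1, which vessels also express. The 10 summed to 5.25, 6.72 and 1.67, with 3, 6 and 1 above the control range. In GFP positive vs GFP negative ES cells 2 were at least 2-fold lower and 3 higher, against 6.40% and 24.0% of all genes. In MGE vs GFP negative ES cells 5 of 9 were lower and none higher, against 17.2% and 9.90%. Pdgfrb, which mural cells express, was above the control range only on the GFP negative ES array (intensities of 75, 472 and 19.5). Rgs5 and Acta2 were above it on none. Of 10 endothelial markers 3, 3 and 1 were above it, with sums of 2.62, 3.78 and 1.53, and Pecam1 and Cdh5 were above it on no array. Egfl7 read 449, 1998 and 74.4, so it was 3.94-fold lower on the GFP positive ES and 18.3-fold lower on the MGE than on the GFP negative ES array, at least 8.99-fold on the MGE array by the control limit, and Kdr had a probe above the limit on all 3 arrays. Esam went the other way, at 379, 94.2 and 73.4, above the limit only on the GFP positive ES array. Of 9 endothelial markers with a value, 1 was at least 2-fold lower and 3 higher in GFP positive vs GFP negative ES cells. Of all genes 6.40% and 24.0% were. In MGE vs GFP negative ES cells 2 were lower and 2 higher of 8, against 17.2% and 9.90% of all genes. Of 5 oligodendrocyte precursor markers 1, 3 and 1 were above it, with sums of 1.27, 7.81 and 1.32. All 6 pluripotency markers were above it on the GFP negative ES array and 2 on each GFP positive array, Nanog and Tdgf1. The limit itself is higher on the GFP positive ES array. Zfp42 read 287 there and was not counted, and 235 on the GFP negative ES array, where it was. Nanog was about as bright on all 3 arrays (230708, 251126 and 225105), and Tdgf1 was above the limit by 1 of its 3 probes. For young neuron markers 10 of 10 were above it on all 3. Of 8 microglial markers 2, 2 and 3 were above it. On both ES arrays these were Itgam and Csf1r, each by 1 of 3 probes. Of 6 erythroid markers 1, 1 and 3 were above it, with sums of 1.25, 0.82 and 20.7. Hbb-y read 30.2, 13.3 and 5629 and Hba-a1 646, 538 and 6004. The part of these marker lists in the values of Notch3 and Jag1 was not tested.

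By Euclidean distance over the 3 arrays, each gene centred on its own mean, the genes most like Hes5 among 7459 above the control range on all arrays were Cdt1, Myo1e, Pltp, Fat1 and Dbi, at distances of 0.0031, 0.036, 0.10, 0.13 and 0.16 log2 units. Those most like Dll3 were Lxn, Sfrp1, Mcm6, H2ac4 and Tead2, at distances of 0.31 to 0.50. With 3 arrays many genes share a pattern, so these names describe the arrays only.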

How the data were processed

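RNA of 3 sorted populations was hybridised to 1 Agilent one-colour array each, all on 1 slide with 1 scan. The methods name 8×60K arrays and a whole transcriptome amplification, and the labels name another array format and kit; the files hold 62976 spots. The deposited intensity values (gProcessedSignal) are background-subtracted spot intensities from Agilent Feature Extraction 10.7.3.1, per the file headers, not normalized between arrays. The deposited log2 values are quantile-normalized median intensities without background subtraction, as set against the scanner values, from which they differed by at most 0.071; how they were shifted is not given in the sources used here. They served as an alternative.

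Spots with an outlier flag were dropped (135, 137 and 98 on the GFP positive ES, GFP negative ES and MGE arrays). The log2 intensities were reduced by each array's 75th percentile over 55681 mouse probes (an intensity of 747, 843 and 576), repeat spots were averaged, and genes are means over probes. A probe counted as well above background where at least 0.5 of its spots were so called. A dim probe was set to at least the lowest intensity of probes well above background, and a gene had a value where at least 1 of both arrays measured it. No spot was saturated. Transcript identifiers of 26582 probes matched 1 gene in the RefSeq table (GRCm38.p6). The array's own build differs, so no probe position is given, and the promoter windows printed are placed in GRCm38.p6. With 1 array a group, a call means a difference of at least 2-fold. Repeat-spot error came from probes with at least 5 spots (358, 324 and 305 probes). Precision is limited by there being 1 array for each population.

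The 9 genes and all lists were chosen with earlier results of these data known. Named pathway genes were up to 2 of each role with the largest absolute difference among those above the control probes on at least 1 array compared, with Rbpj, Hes6, Lfng and Nrarp always named. Neurog3, Cbfa2t3, Numb and Fbxw7 were named in addition. A few listed genes are not reported here, and the counts by role leave them out. Counts and differences were recomputed under 11 alternatives. The steps were tested on simulated data. Python 3.11.15, pandas 2.3.3, numpy 2.4.6, R 4.3.3 and limma 3.58.1 (normexp alternative) were used.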

Additional observations from a re-analysis of the deposited data

How the results depend on the processing

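Of the 66 values of the 6 counts of genes past 2-fold under the 11 alternatives, 59 stayed within 1.5 times the count reported. The other 7 were all in MGE vs GFP positive ES cells. The 2 genes at least 2-fold lower there became 0 with the 50th percentile, with quantile normalization, with normexp background correction and with the deposited log2 values, and 1 with median intensities without background subtraction and with the floor at the control probes. The 1 gene at least 2-fold higher became 4 with the 50th percentile. Of single genes in that comparison, Hes1 turned to 0.14 with quantile normalization and 0.0418 with the deposited values, and with quantile normalization Neurog2 turned to 0.26 and Neurog1 to 0.64. Uncalled differences that turned there were those of Jag1 (up to 0.61), Notch1 (0.39) and Notch2 (up to 0.33). The cause was not tested. No paired analysis was possible because each group had 1 array. Normexp was planned on mean intensities, which the scanner values used here do not hold, and was run on median intensities instead. That choice, and centring on probes above the control probes, were made after seeing the data. Signal over background limits Hes1, Notch2 and the neurogenins, which lay within the range of control probes on both GFP positive arrays.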
